A study of Mus musculus with 6 samples.

Results

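The data concern Fto and the 8 AlkB family genes Alkbh1 to Alkbh8 in mouse white fat. Members were all probe sets whose platform annotation gave one of these 9 gene symbols, whatever their values, which gave 16 of the 45101 probe sets in the table, for 9 of the 18193 genes with a probe set of their own. Total RNA was measured on 6 Affymetrix arrays, whose probes lie towards the 3' end of each transcript. Control mice (labelled FTO flox/flox) carried floxed Fto alleles without Cre. AFO mice (labelled Adiponectin-cre FTO flox/flox) carried the same alleles together with an adiponectin Cre, which acts in fat cells. By this design the vessel, immune and stromal cells of the pad should keep Fto, but Fto was not measured by cell type. Both groups were male C57BL/6 mice aged 16 weeks, fed a chow diet with food freely available, and the tissue was the epididymal pad, a visceral depot. Each genotype had 3 arrays, each from an RNA pool of its own numbered 1 to 3, and the number of mice in a pool is not given in the sources used here.

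Enzymes of this family are named after the AlkB protein of Escherichia coli. They use iron, oxygen and 2-oxoglutarate to oxidise their substrates, and in many cases an oxidised methyl group then leaves. Fto and Alkbh5 remove N6-methyladenosine (m6A) from RNA, Alkbh2 and Alkbh3 repair alkylated bases, and Alkbh1 and Alkbh8 modify tRNA. For Alkbh4 and Alkbh7, roles outside nucleic acids have been described. Fto became known through human variants associated with body weight, and in cultured preadipocytes it has been linked to the formation of fat cells.

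In these arrays none of the 16 probe sets separated the genotypes. AFO and control values overlapped for each of them, the mean differences lay between -0.14 and 0.14 on the log2 scale, and 0 passed the limma test at an adjusted p under 0.05. This was close to the whole table of 34945 tested probe sets, where 3.97% had groups without overlap and 0 passed. The absolute difference was under 0.5 for 97.6% of them. Pool number held a larger share of the variation (sum of squares) than genotype in 14 of 16 cases, close to the 85% of all probe sets for which this held. Pool number has more levels than genotype, which favours its share even without an effect of the pools. The widest swing over arrays belonged to Alkbh2, the repair enzyme for double-stranded DNA, and it followed the pools in both genotypes.

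The tissue carried its fat cell markers, with a median level of 11.69 to 12.46 over 7 adipocyte genes in the 6 arrays, and 0 of the 7 lay under the 40th percentile of all probe set means (4.88). Both pool 2 arrays stood apart. Their median over 6 mesothelial markers was 4.67 to 5.24 against 8.14 to 8.29 in pools 1 and 3, and over 5 B cell markers 8.74 to 9.43 against 5.20 to 6.12. Over 5 T cell markers it was 7.35 to 7.74 against 5.20 to 5.39, and over 6 skeletal muscle markers 9.29 and 11.89 in pool 2 against 9.50 in AFO pool 1 and 5.10 to 5.31 in the other 3 arrays. Of the other lists, neutrophil markers were at 7.47 to 7.91 in pool 2 and 5.81 to 6.55 elsewhere, progenitor markers at 8.35 to 8.45 and 8.87 to 9.01, and endothelial markers at 7.98 to 8.28 and 8.40 to 8.88. Macrophage markers were at 9.85 to 9.97 in pool 2 and 9.86 to 10.16 elsewhere, and epididymis markers at 4.15 to 4.44 over all arrays, with 3 of 5 under the 40th percentile. AFO pool 3 had the largest excess of 3' over 5' control signal, 1.33 for Actb against 0.73 to 0.95 in the other arrays and 0.38 for Gapdh against -0.12 to 0.19. An exact two-sided permutation test of the genotypes gave p = 1 for Actb and 0.6 for Gapdh, where 0.1 is the smallest that 3 against 3 arrays can give. The part of these differences in the values below was not tested.

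Fto was read by a pair of probe sets. The first, 1448223_at, is tied by the annotation to the Fto RefSeq transcript. It read 6.11, 6.20 and 5.59 in control pools 1, 2 and 3, and 6.13, 5.45 and 5.95 in the corresponding AFO pools. The lowest array was an AFO array and the next lowest a control array, so the groups overlapped over nearly their whole range. The control mean was 5.96 ± 0.33 and the AFO mean 5.84 ± 0.35 (SD, n = 3). The difference of -0.12 (SE 0.24) had a 95% interval from -0.70 to 0.46, which is 0.617 to 1.37 times the control level, and a limma adjusted p of 0.999956. A signal under 0.617 of control lies outside this interval, but the limit moved with single arrays. With 1 array left out, the lower limit ran from -0.91 log2 units (without AFO pool 1) to -0.46 (without AFO pool 2). The sign was set by pool 2. AFO was lower there by 0.75, and higher by 0.02 in pool 1 and by 0.36 in pool 3. Without both pool 2 arrays the difference was 0.19 (95% interval -0.33 to 0.71), and without AFO pool 2 alone it was 0.08.

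The second Fto probe set, 1430829_s_at, was dim. Its ending marks probes shared by more than one transcript, and its mean of 2.88 lay at percentile 7.27 of all probe sets. It read 2.80, 2.98 and 2.87 in control and 2.77, 2.89 and 2.98 in AFO pools 1, 2 and 3. The difference was -0.0061 (SE 0.098), and it turned to 0.0020 when arrays were centred on their medians. Near the floor of the array such values carry little information on the transcript. The labels do not say which exon lies between the loxP sites, and whether either probe set lies in the deleted part is not known here. Neither probe set can therefore be taken as a check of the genotype, and the effect of the deletion on these values was not tested. In whole tissue, moreover, fewer cells of a type and less RNA per cell cannot be told apart, and any Fto RNA of cells without Cre would add to each value.

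Alkbh5 is the other m6A eraser, a nuclear enzyme with a known role in male germ cells. Its probe set 1434701_at had a mean at percentile 92.4 of all probe sets. It read 8.88, 8.83 and 9.19 in control and 8.97, 8.81 and 8.74 in AFO pools 1, 2 and 3. Control pool 3 was the highest and AFO pool 3 the lowest, with the other 4 arrays within the span between them. The difference was -0.13 (SE 0.16; 95% interval 0.707 to 1.18 times control), with a limma adjusted p of 0.999956. Within pools it was 0.09, -0.02 and -0.45. The second Alkbh5 probe set, 1437728_at, read 6.64, 6.67 and 6.62 in control and 6.68, 6.68 and 6.35 in AFO fat. AFO pool 3 lay under the other arrays, which were close together. Its difference of -0.07 (SE 0.15) turned to 0.04 without AFO pool 3, the array with the largest 3' excess. The intervals of the Fto and Alkbh5 probe sets all left out a change of 1 log2 unit in either direction, as did 90.2% of all intervals. For Fto this describes the probe sets and is no check of the genotype.

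**Figure D1:**
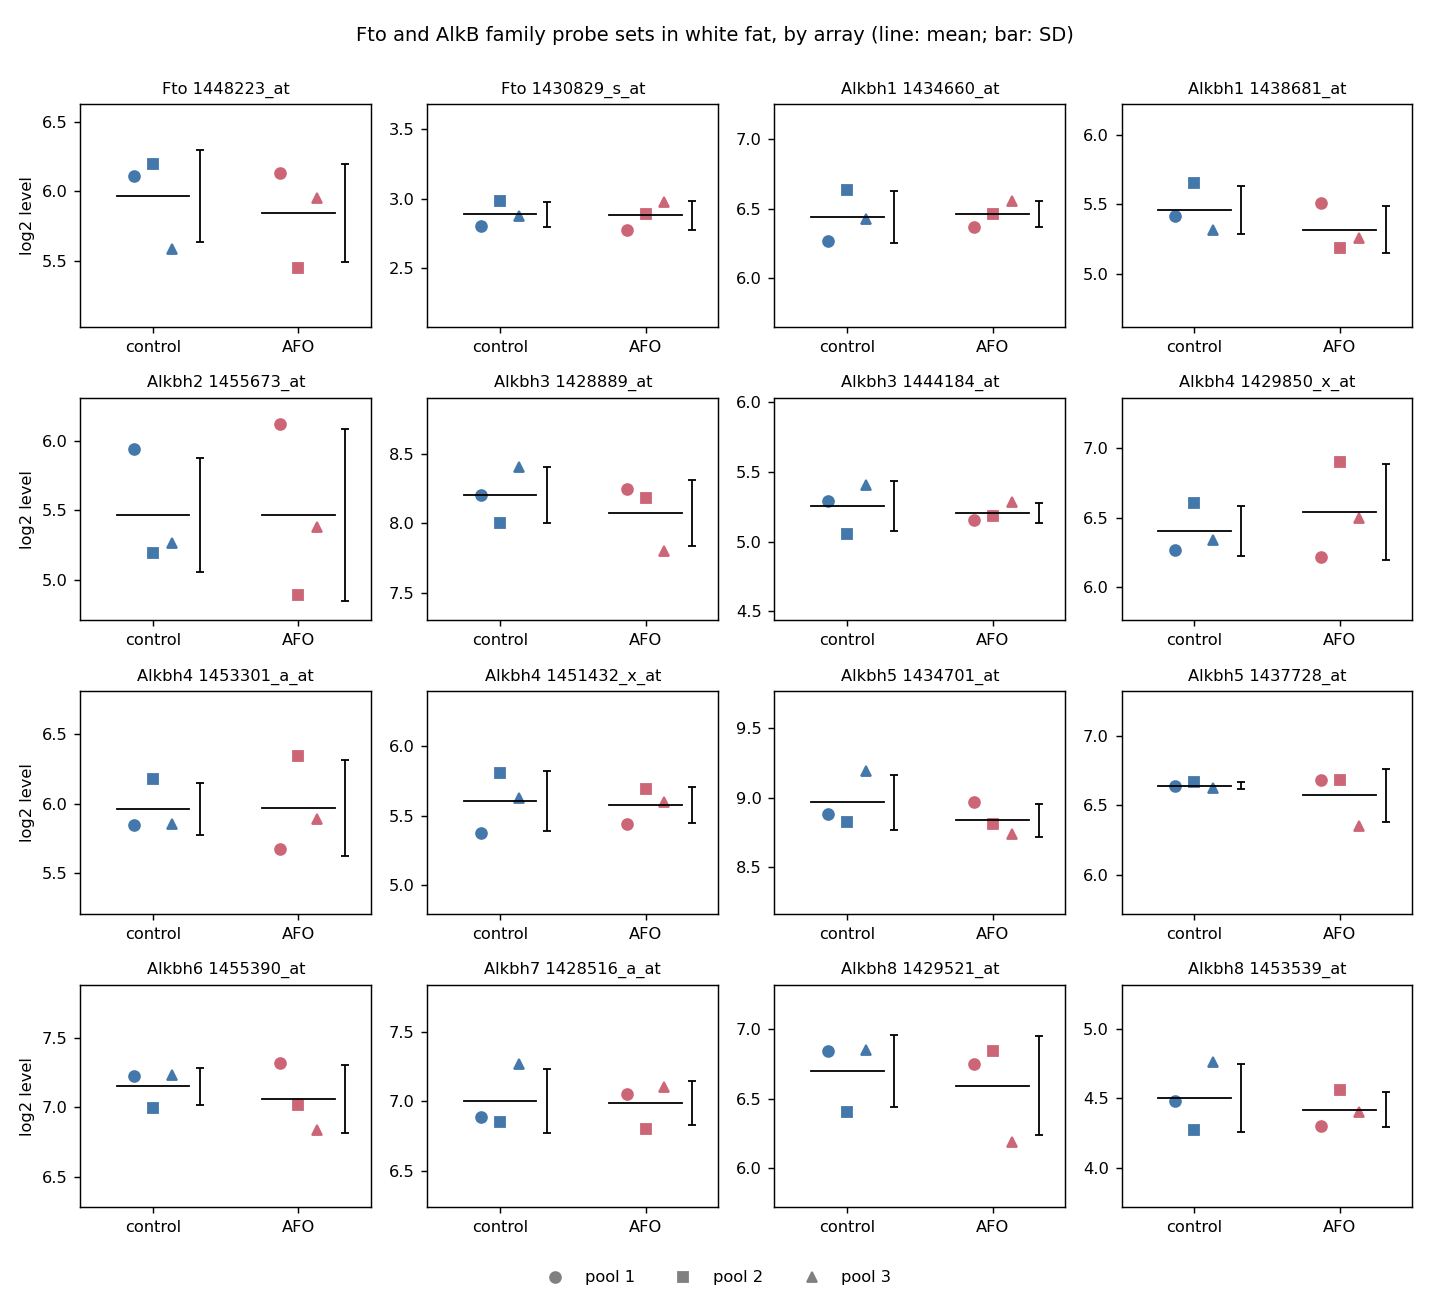
Log2 expression level of each of the 16 probe sets (1 panel each) in control (blue) and AFO (red) white fat, with symbols for pools 1 to 3, a line at the mean and a bar of 1 SD to either side (n = 3). Each panel spans the same number of log2 units, and in every panel the red and blue symbols overlap, with the widest spread for Alkbh2.

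Alkbh2 and Alkbh3 directly reverse alkylation damage, Alkbh2 mainly in double-stranded DNA and Alkbh3 in single-stranded DNA and RNA. Alkbh2 (1455673_at) read 5.94, 5.19 and 5.26 in control and 6.12, 4.89 and 5.38 in AFO pools 1, 2 and 3. Pool 1 was highest in both genotypes and pool 2 lowest in both, and the range over the 6 arrays was 1.23. Pool number held 93.8% of its sum of squares over the arrays and genotype less than any other member's share. The genotype means were both 5.47, with a difference of 0.00030 (SE 0.35) that was -0.013 after repeated quantile normalisation. As the SE rests on the spread between pools, its 95% interval was the widest, from -0.82 to 0.82. With pool number as a block the interval was -0.37 to 0.37 and the adjusted p 0.999753.

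Alkbh3 (1428889_at) read 8.20, 8.0 and 8.40 in control and 8.24, 8.18 and 7.80 in AFO fat. The AFO pool 3 array was again lowest, beside control pool 3 as the highest. The difference of -0.13 (SE 0.18) became 0.0096 without AFO pool 3. The other Alkbh3 probe set, 1444184_at, read 5.29, 5.06 and 5.41 in control and 5.15, 5.18 and 5.29 in AFO fat, a difference of -0.05 (SE 0.15). Here AFO pool 3 was not low, and in only 3 of 6 arrays did both Alkbh3 probe sets lie on the same side of their means.

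Alkbh1 and Alkbh8 work on tRNA. Alkbh1 demethylates tRNA and takes part in modifying a mitochondrial tRNA, and Alkbh8 joins a methyltransferase and a hydroxylase that act on the wobble uridine. Alkbh1 (1434660_at) read 6.27, 6.63 and 6.42 in control and 6.37, 6.46 and 6.56 in AFO fat, a difference of 0.02 (SE 0.16). Its other probe set (1438681_at) read 5.42, 5.65 and 5.31 in control and 5.51, 5.18 and 5.26 in AFO fat. That difference of -0.14 (SE 0.16) had the smallest unadjusted p of the 16 (0.403; limma adjusted p 0.999956), and it was 0.02 without both pool 2 arrays. The Alkbh1 probe sets lay on the same side of their means in 2 of 6 arrays.

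Alkbh8 (1429521_at) read 6.84, 6.40 and 6.85 in control and 6.75, 6.84 and 6.19 in AFO fat. AFO was higher by 0.44 in pool 2 and lower by 0.66 in pool 3, so the difference of -0.11 (SE 0.23) averaged opposite signs, and it turned to 0.10 without AFO pool 3. The second probe set, 1453539_at, lay under the 40th percentile and read 4.48, 4.27 and 4.76 in control and 4.30, 4.56 and 4.40 in AFO fat, a difference of -0.08 (SE 0.16). It showed the same order of signs, with differences of -0.18, 0.28 and -0.36 in pools 1, 2 and 3 against -0.10, 0.44 and -0.66 for the brighter probe set.

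Alkbh4 has been described as a demethylase of actin, and it was read by 3 probe sets. The probe set 1429850_x_at read 6.27, 6.61 and 6.34 in control and 6.22, 6.90 and 6.50 in AFO fat. By the annotation 1453301_a_at comes from the same cDNA record, so both share sequence, and it read 5.85, 6.17 and 5.86 in control and 5.67, 6.34 and 5.89 in AFO fat. The third, 1451432_x_at, read 5.38, 5.81 and 5.63 in control and 5.44, 5.69 and 5.60 in AFO fat. In all 3 the pool 2 arrays of both genotypes lay above the other 4 arrays, by 0.42, 0.44 and 0.24 in the mean, and Alkbh4 was the one member gene with this pattern. Over all 34945 tested probe sets 19.1% had the pool 2 arrays above the others. The genotype differences were 0.14 (SE 0.21), 0.01 (SE 0.21) and -0.03 (SE 0.16). Probes of the _x_at type can also bind related transcripts.

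Alkbh7 is a mitochondrial protein with roles in programmed necrosis and fat metabolism. Its probe set (1428516_a_at) read 6.89, 6.85 and 7.27 in control and 7.05, 6.80 and 7.10 in AFO fat, a difference of -0.02 (SE 0.18). Pool 2 was lowest in both genotypes and pool 3 highest in both. Alkbh6 (1455390_at), whose function is little known, read 7.23, 7.00 and 7.23 in control and 7.32, 7.02 and 6.84 in AFO fat. Its difference of -0.09 (SE 0.18) turned to 0.02 without AFO pool 3, the lowest array.

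Across the family, 12 of 16 probe sets had a lower mean in AFO and 4 a higher one, with a median difference of -0.057. Over all probe sets tested 55.5% were lower, with a median of -0.019. The limma fit without pairing called 0 of the 16 and 0% of the 34945 probe sets, and 0 of the 16 had an unadjusted p under 0.05 against 1.24% of all. With pool number as a block the fit called 0 of the 16 and 0.00572% of all, which were Bex1 and Mlf1, 2 genes outside the family named because the count is this small. At an unadjusted p under 0.05 the block gave 0 of the 16 against 3.45% of all. None of the 16 had groups without overlap, where 3.97% of all probe sets did. None differed in the same direction in all 3 pools, which 22.2% of all probe sets did. With 16 probe sets of 9 genes, several of them reading 1 transcript, these counts describe the family and are no test of it.

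**Figure D2:**
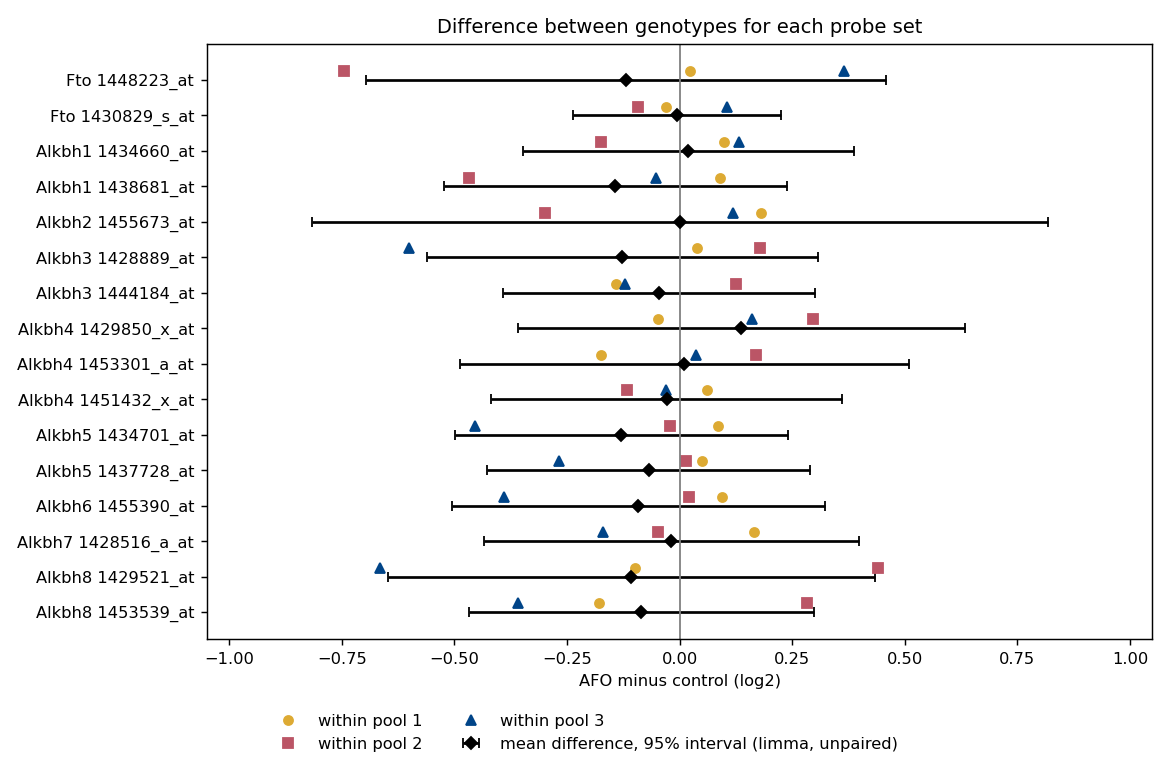
AFO minus control difference in log2 units for each probe set, with the limma mean and 95% interval (black) and the differences within pools 1 to 3 (coloured). All 16 intervals include 0 and stay within 1 log2 unit, and for each probe set the pools fall on both sides of 0.

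The precision behind these values was that of a typical probe set. The standard errors ran from 0.098 to 0.35 with a median of 0.17, against a median of 0.18 over all probe sets. All 16 intervals lay within 1 log2 unit of 0, as did 90.2% of all intervals. Differences smaller than the intervals could not be told from 0 with 3 arrays per genotype. Whether RNA of other cells diluted changes confined to fat cells was not tested.

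Pool number had the largest median share of the variation, but it has more levels than genotype and the labels state no pairing. The sum of squares of each probe set over the 6 arrays was divided into genotype, pool number and remainder. The median shares of the 16 were 4.36%, 60.4% and 34.9%, and those of all probe sets 6.78%, 60.2% and 23.7%. Over the 16 alone, deviations in arrays of equal pool number correlated at 0.829, 0.18 and -0.23, so the shares are descriptions. Members differed among themselves, from Alkbh2 and the Alkbh4 probe set 1451432_x_at (92.7%) with nearly all of it in the pools to Alkbh3 1428889_at with 10.3%. In Alkbh3 1428889_at and Alkbh8 1429521_at the remainder held 78.7% and 76.1%, and there AFO pool 3 lay 0.60 and 0.66 under control pool 3. AFO pool 3 was the lowest of the 6 arrays for 5 of 16 probe sets (Alkbh3, both of Alkbh5, Alkbh6 and Alkbh8), where 21.6% of all probe sets had their lowest value there. The pool 2 arrays lay outside the other 4 for 5 of 16 against 41.1% of all, namely the 3 of Alkbh4 above, and Alkbh2 and Alkbh7 below. Without both pool 2 arrays the median difference of the family was -0.036 and 0 of the 16 passed, where 0.455% of all probe sets did.

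**Figure D3:**
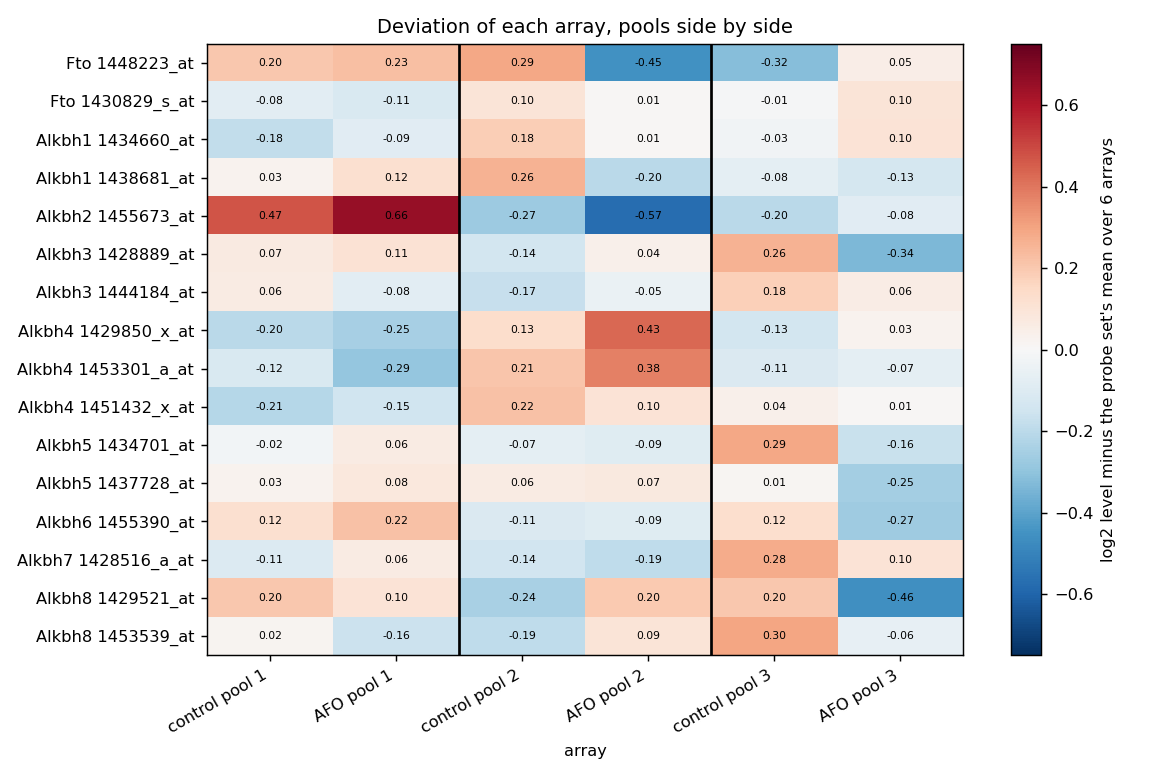
Deviation of each array from the probe set's own mean over the 6 arrays, in log2 units (red above, blue below), with the control and AFO arrays of each pool number side by side. Alkbh2 is high in both pool 1 arrays and Alkbh4 in both pool 2 arrays, while Fto 1448223_at differs in sign between the pool 2 arrays (0.29 in control and -0.45 in AFO).

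Genes that work with or beside the family were compared through lists. For comparison with each list here and below, 55.5% of all probe sets tested were lower in AFO, with a median of -0.019 and 0 called. The m6A writers, which place the mark, had 21 probe sets of 12 genes with 13 higher and 8 lower in AFO, a median of 0.020 and 0 called. The readers, which bind it, had 19 probe sets of 6 genes with 9 higher, 10 lower, a median of -0.00068 and 0 called. The 2 writer probe sets with the smallest p both belonged to Zc3h13, a scaffold of the writer complex, at 0.17 (SE 0.15) and 0.15 (SE 0.15). Among readers they were Igf2bp1, an mRNA-stabilising protein, at -0.20 (SE 0.11) and Ythdc1, the nuclear reader, at -0.18 (SE 0.16). None of these 4 probe sets passed, and only the Igf2bp1 groups did not overlap, at a dim probe set (percentile 29.0 of all probe sets). Named probe sets had the smallest p of their list, which favours groups without overlap, here and in the lists below. Over all probe sets 3.97% had no overlap. The other probe sets of these genes differed by 0.0010 for Zc3h13, -0.0064 for Ythdc1 and -0.096 to 0.058 for Igf2bp1.

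DNA alkylation repair had 27 probe sets of 11 genes, 15 of them lower, a median of -0.016 and 0 called, near the 55.5% lower and median of -0.019 of all probe sets. Mpg, the glycosylase that excises alkylated bases, differed by -0.34 (SE 0.18) at a probe set of low level, while its 2 other probe sets differed by -0.05 and 0.07. Ascc3, a helicase that works with Alkbh3, differed by -0.20 (SE 0.14) and at its other probe set by -0.036. The groups did not overlap at these Mpg and Ascc3 probe sets, as in 3.97% of all probe sets, but both were named for their small p. The tRNA list had 15 probe sets of 7 genes, 9 of them lower, a median of -0.057 and 0 called. Both of its smallest p belonged to Nsun3, the methyltransferase whose product Alkbh1 oxidises further, at -0.30 (SE 0.12) and -0.26 (SE 0.16). The first of these probe sets was dim, with a mean at percentile 13.8 of all probe sets. Its unadjusted limma p was 0.0427 and its limma adjusted p 0.999956. The 2 further Nsun3 probe sets differed by -0.20 and -0.14.

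The other dioxygenases that use iron and 2-oxoglutarate had 99 probe sets of 37 genes, with 43 higher, 56 lower, a median of -0.023 and 0 called. Both smallest p were at Bbox1, the last enzyme of carnitine synthesis. Its probe set 1459030_at read 3.69, 3.48 and 3.42 in control and 4.85, 3.89 and 4.88 in AFO pools 1, 2 and 3, with no overlap between the groups. That probe set was dim, with a mean at percentile 24.6 of all probe sets. The difference of 1.01 (SE 0.27) had an unadjusted p of 0.00744 and a limma adjusted p of 0.999956. The second, 1419618_at, read 5.79, 5.82 and 5.49 in control and 7.08, 5.77 and 7.40 in AFO fat, where AFO pool 2 lay among the controls. Both passed without the pool 2 arrays, at 1.31 and 1.60 (limma adjusted p 0.0272 and 0.0213, with 2 arrays per genotype). In that setting 0.455% of all probe sets passed. It leaves out the AFO array that lay among the controls, and Bbox1 was named for its small p, so the pass is no independent support. The list on 2-oxoglutarate supply had 24 probe sets of 10 genes, 14 of them lower, a median of -0.011 and 0 called. The mitochondrial aspartate aminotransferase Got2 (1417715_a_at) read 9.06, 8.97 and 8.81 in control and 9.33, 9.73 and 9.35 in AFO fat, without overlap, with a difference of 0.53 (SE 0.16; limma adjusted p 0.999956). Its other probe sets differed by 0.29, 0.12 and 0.10, with overlapping groups. Its cytosolic counterpart Got1 differed by 0.68 (SE 0.38). Both are abundant in muscle, and skeletal muscle markers were at 9.50 and 11.89 in AFO pools 1 and 2 and 5.10 in AFO pool 3, against 5.31, 9.29 and 5.12 in control; the part of muscle in these values was not tested.

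**Figure D4:**
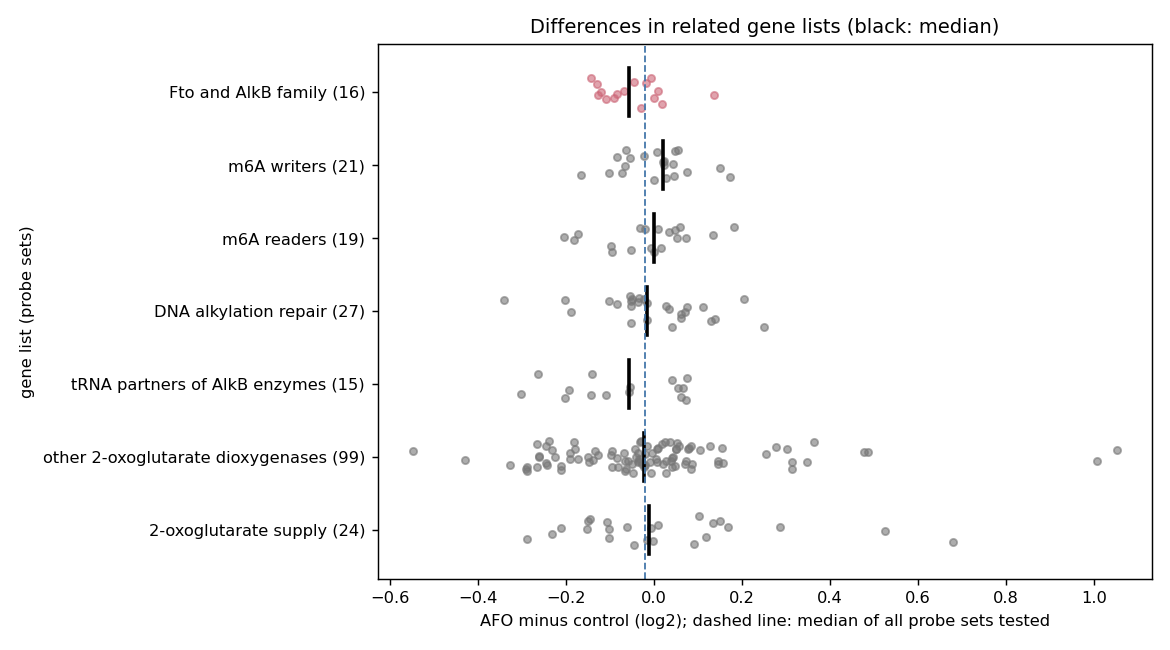
AFO minus control difference in log2 units of every probe set in the Fto and AlkB family (red) and in 6 related gene lists (grey), with black bars at list medians and a dashed line at the median of all probe sets tested. The family lies between -0.14 and 0.14, and the 2 points to the far right are the Bbox1 probe sets.

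The probe sets most like Fto 1448223_at over the 6 arrays were found by the root mean squared difference between deviations from each probe set's own mean. The 5 nearest named ones belonged to Ntrk2 (0.079 log2 units), a neurotrophin receptor, Pmepa1 (0.092), an inhibitor of TGF beta signalling, Acr (0.098), the sperm protease acrosin, Prl8a9 (0.098), a prolactin family hormone, and Cebpa (0.10), a transcription factor of fat cells. Each was lowest in AFO pool 2 and next lowest in control pool 3, as Fto was, an order that the choice by likeness favours. Cebpa read 11.20, 11.42 and 10.88 in control and 11.21, 10.82 and 11.15 in AFO fat. In all, 51 named probe sets lay within 0.15 of Fto, whose own spread over the arrays was 0.28. Acr and Prl8a9 lay in the dim range of the array, so likeness over 6 arrays alone does not mark them out. For the dim Fto probe set the nearest were Nars2 (0.018), Zfp703 (0.026), Tbc1d12 (0.027), Cdh7 (0.027) and Cecr2 (0.027), but 9031 probe sets lay within 0.15 of it and its own spread was 0.080, so that likeness to it is not specific.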

How the data were processed

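Values are log2 expression levels as deposited. Per the submitters' processing notes the authors made them with RMA in Affymetrix Expression Console 1.4, a method that gives all arrays nearly 1 distribution, which hides any shift common to most transcripts and shrinks differences of dim probe sets. The genome build is not given in the sources used here. Levels of different probe sets are not comparable as amounts of RNA.

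Of 45101 probe sets, 64 were controls, 932 had several gene symbols and 9160 none listed. The other 34945 were fitted without a filter, each separately, in limma 3.58.1 (R 4.3.3; moderated variances with trend, no pairing, Benjamini-Hochberg adjustment over all 34945, called under 0.05). The fits were tested on simulated data. All 16 member probe sets matched RefSeq by gene ID, and 14 had a mean above the 40th percentile (4.88).

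Genotype and replicate number came from sample titles, and the sample descriptions give the same numbers to the RNA pools. Arrays of equal pool number correlated in their deviations from genotype means at 0.486, 0.733 and 0.371 across probe sets, above the limit of 0.1, so numbers count as paired, although unequal numbers also passed it (0.341 for control 1 beside AFO 3, 0.392 for control 3 beside AFO 1), and the labels state no pairing. Over the 16 member probe sets alone the equal numbers gave 0.829, 0.18 and -0.23, and control 2 with AFO 3 gave 0.461, so differences within a pool number are descriptions. The unpaired fit stays first.

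The members, lists and tests were chosen with earlier results of these data known. Named genes were all members, the 2 probe sets with the smallest p in each list, and the 5 nearest to each Fto probe set. Listed genes without a matching symbol were not analysed here. Alternatives were filters at the 40th and 60th percentile, 1 probe set per gene, all probe sets, quantile normalisation, median centring, no trend, robust fitting, array weights, the pool block, each array left out, and both pool 2 arrays left out.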

Additional observations from a re-analysis of the deposited data

How the results depend on the processing

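No member probe set passed under any of the 17 alternatives (smallest limma adjusted p 0.758). With pool number as a replicate block 2 probe sets of the whole table were called in place of 0 and no member call changed (Fto 1448223_at: -0.12). With probe sets of several or no symbols added 1 was called, without both pool 2 arrays 159, and with 1 array left out between 0 and 90, the highest without AFO pool 2. Of 255 member values under alternatives, 33 changed sign, all without a call.

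Leaving out 1 array gave -0.31 to 0.078 for Fto 1448223_at, -0.056 to 0.048 for Fto 1430829_s_at, -0.068 to 0.12 and -0.24 to -0.048 for Alkbh1, -0.33 to 0.29 for Alkbh2, -0.23 to 0.0096 and -0.14 to 0.032 for Alkbh3, -0.044 to 0.30, -0.18 to 0.16 and -0.14 to 0.073 for Alkbh4, -0.20 to -0.017 and -0.12 to 0.041 for Alkbh5, -0.22 to 0.019 for Alkbh6, -0.094 to 0.11 for Alkbh7, and -0.26 to 0.095 and -0.20 to 0.042 for Alkbh8. Without both pool 2 arrays the sign turned for Fto (0.19 and 0.037), Alkbh1 1438681_at (0.018) and Alkbh4 1453301_a_at (-0.069) and 1451432_x_at (0.015). With array weights it turned for Fto 1430829_s_at (0.060), Alkbh2 (-0.27), Alkbh4 1451432_x_at (0.14) and Alkbh7 (0.12). Median centring turned Fto 1430829_s_at (0.0020) and quantile normalisation Alkbh2 (-0.013). The cause was not tested. The dim probe sets Fto 1430829_s_at and Alkbh8 1453539_at fell to every filter, and signal near the floor limits what they show.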
